A study of Mus musculus with 6 samples.

Results

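Of the 6 EML libraries of the series, 2 were set apart by their high levels of mast cell protease transcripts: replicate 1 of the knockdown control and the KAI1 overexpression. They are called the mast-gene-rich libraries here and were set against the other 4, namely replicate 2 of the knockdown control, KAI1 knockdown replicates 1 and 2, and the overexpression control. The sides were chosen from the values of these same libraries, so every difference between them is given as a description with no test. The comparison covered the 10112 of 23146 transcript entries whose RPKM, a read count scaled for transcript length and for the depth of the library, averaged at least 1 over all 6 libraries. In 3095 of those entries the sides did not overlap.

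The study measured RNA in EML cells with less or more KAI1, the tetraspanin that Cd82 encodes. EML is a mouse bone marrow progenitor line that was grown in medium with stem cell factor, and the labels give the strain as BDF1 and the cell type as basophil. The labels name 4 groups: wild-type cells as knockdown control (n = 2), KAI1 knockdown (n = 2), wild-type cells as overexpression control (n = 1) and KAI1 overexpression (n = 1). All cells shared the line, the medium and the growth factor. Each side thus mixes labelled groups, the replicates of the knockdown control stand on opposite sides, and nothing in the labels says that replicates came from separate cultures. No mean or SD of a gene is printed over a side for that reason, and values are given by library or as a range over the other 4. The list medians below do rest on the median of each side on the log2 scale. Counts of entries that average under 1 RPKM on a side rest on side means. In the overexpression arm, which has 1 library per group, the side and the KAI1 label cannot be told apart.

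EML cells can give rise to erythroid, myeloid and mast cells. Mast cells store chymases, tryptases, carboxypeptidase, histamine and proteoglycan in granules, carry the high-affinity IgE receptor, and depend on the receptor Kit. Gata2 and Mitf are known as transcription factors of mast cells, while Gata1 with Klf1 drives globin and other red cell genes. Cd34 is a surface protein of progenitors.

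The promoters of 5 genes are shown because GATA factors act in both lineages and the genes lie on either side of the comparison. Each runs from 250 bases before to 50 bases after the annotated start, from RefSeq on GRCm38.p6, and capitals mark GATA words on either strand, that is GATA with an A or T before it and an A or G after it. Mcpt4, a chymase of the mast cell granule (chr14:56062261-56062560, minus strand), and Akr1c12, an aldo-keto reductase (chr13:4279350-4279649, minus strand), were higher in the mast-gene-rich libraries. Klf1 (chr8:84901732-84902031, plus strand), the embryonic beta-like globin Hbb-y (chr7:103853158-103853457, minus strand) and Cd34 (chr1:194938571-194938870, plus strand) were lower.
Mcpt4: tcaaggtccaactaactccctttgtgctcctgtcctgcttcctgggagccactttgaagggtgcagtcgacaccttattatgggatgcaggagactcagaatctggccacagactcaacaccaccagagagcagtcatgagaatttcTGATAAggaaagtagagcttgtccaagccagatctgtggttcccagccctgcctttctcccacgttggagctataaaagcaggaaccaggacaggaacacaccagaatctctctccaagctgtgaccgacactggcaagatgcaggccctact
Akr1c12: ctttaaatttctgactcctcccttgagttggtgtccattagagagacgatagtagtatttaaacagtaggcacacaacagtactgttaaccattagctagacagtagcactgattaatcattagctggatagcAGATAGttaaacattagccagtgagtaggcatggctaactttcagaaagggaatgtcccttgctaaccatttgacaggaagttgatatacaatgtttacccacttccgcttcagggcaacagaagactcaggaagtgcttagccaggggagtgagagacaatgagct
Klf1: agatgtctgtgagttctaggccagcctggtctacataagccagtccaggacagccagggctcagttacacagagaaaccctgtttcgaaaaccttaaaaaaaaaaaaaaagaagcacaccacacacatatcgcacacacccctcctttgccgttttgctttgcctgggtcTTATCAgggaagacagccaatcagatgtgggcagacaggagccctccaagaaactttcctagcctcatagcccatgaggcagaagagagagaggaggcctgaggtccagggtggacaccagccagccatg
Hbb-y: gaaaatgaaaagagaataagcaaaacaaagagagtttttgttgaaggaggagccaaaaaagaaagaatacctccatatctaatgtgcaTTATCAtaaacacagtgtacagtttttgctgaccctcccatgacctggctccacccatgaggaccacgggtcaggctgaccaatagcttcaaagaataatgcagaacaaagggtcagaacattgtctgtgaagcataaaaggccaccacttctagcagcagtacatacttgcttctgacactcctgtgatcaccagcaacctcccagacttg
Cd34: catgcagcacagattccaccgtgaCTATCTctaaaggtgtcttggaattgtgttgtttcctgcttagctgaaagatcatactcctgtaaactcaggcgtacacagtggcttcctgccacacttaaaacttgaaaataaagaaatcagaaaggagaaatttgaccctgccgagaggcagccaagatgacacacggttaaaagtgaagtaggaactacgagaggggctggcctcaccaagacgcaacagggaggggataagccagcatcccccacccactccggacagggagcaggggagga
Each of these 5 windows held 1 GATA word, which began at -103 from the annotated start in Mcpt4, -117 in Akr1c12, -80 in Klf1, -162 in Hbb-y and -226 in Cd34. Both windows of Tmem176a, a gene with a wide gap below, held 0. These matches are letters in a window and show no binding.

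Over genes 2-fold or more apart, both sides held such words. A GATA word stood in 26.5% of the 132 promoter windows of genes whose mast-gene-rich libraries lay at least 2-fold above the other 4 and in 32.1% of the 134 windows of those at least 2-fold below. It stood in 18.8% of the 10266 windows of all entries with a mean of 1 RPKM or more and in 29.8% of the 32851 windows of the table. The CACCC word, the core of the sites known for Klf factors, stood in 73.5% of windows above and 70.1% of windows below. It stood in 62.4% of windows of entries with a mean of 1 RPKM or more and 57.5% of windows of the table. The longer word CCACACCC, which ends in CACCC, stood in 11.4% and 5.97%, against 3.85% and 3.56% in the same order. An E-box (CANNTG) followed within 6 to 12 bases by a GATA word stood in 3 windows above (2.27%) and 6 below (4.48%). Its share was 0.721% for entries with a mean of 1 RPKM or more and 1.46% for the table, and few windows stand behind it. All words were searched on both strands, and genes without a window in the table were left out, so that 102 of 136 symbols above and 99 of 128 below were covered.

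The 4 marker genes differed in how far they separated the libraries. Gene coordinates below are on mm9. Tpsb2, a tryptase (chromosome 17, 25503278 to 25505037), stood at 3379 and 303 RPKM in the mast-gene-rich libraries and 45.1, 25.7, 44.9 and 7.72 RPKM in the other 4, in the order given above, which is kept throughout. Mcpt4 (chromosome 14, 56678581 to 56681147) stood at 9416 and 239.6 RPKM in the mast-gene-rich libraries and 220.5, 66.8, 165 and 23.2 RPKM in the other 4. Mcpt4 was therefore extreme in knockdown control replicate 1 alone: its level in KAI1 overexpression was barely above that of knockdown control replicate 2. Klf1 (chromosome 8, 87425827 to 87429194) stood at 0.949 and 0.533 RPKM in the mast-gene-rich libraries and 27, 21.4, 26.5 and 18.7 RPKM in the other 4, with the sides far apart. Cd34 (chromosome 1, 196765015 to 196803153) stood at 0.859 and 15.9 RPKM in the mast-gene-rich libraries and 64.7, 65.7, 77.9 and 66.4 RPKM in the other 4, and KAI1 overexpression held an intermediate level.

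The sum of 8 mast cell markers (Mcpt4, Tpsb2, Cpa3, Cma1, Hdc, Ms4a2, Fcer1a and Kit) was 42700 and 13300 RPKM in the mast-gene-rich libraries and 7230, 4560, 3890 and 3290 RPKM in the other 4. Cpa3 and Cma1 made up most of that sum in all 6 libraries. In the other 4, Tpsb2 was at 7.72 to 45.1 RPKM, Ms4a2 at 0.443 to 3.71 RPKM and Fcer1a at 0 to 0.289 RPKM. The erythroid markers summed to 74.2 and 627 RPKM against 2370, 1950, 2170 and 1940 RPKM. Hbb-bt made up most of each sum, and in knockdown control replicate 1 Epor added 15.6 RPKM. Slc4a1, the anion exchanger of mature red cells, was under 1 RPKM in all 6 libraries. The basophil markers, which bear on the labelled cell type, summed to 321 and 3960 RPKM against 426, 246, 124 and 508 RPKM, with Mcpt8, a basophil protease, as the largest term in every library. The sum of 5 progenitor markers (Cd34, Flt3, Ly6a, Meis1 and Hoxa9) did not follow the sides, with 749 and 67.8 RPKM against 283, 163, 287 and 193 RPKM. Ly6a was its largest term in every library and was highest in knockdown control replicate 1. Cd34 and Meis1 each lay below without overlap. Flt3 and Hoxa9 were under 1 RPKM in all 6. The label of progenitor and erythroid libraries therefore holds here for globins, Klf1, Cd34 and most of the red cell membrane genes given below. It does not hold for Slc4a1, for Epor, which overlapped, or for every progenitor gene. Mpo, a neutrophil and monocyte gene, was also lower on the mast-gene-rich side.

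The mast-gene-rich libraries lay above all of the other 4 in 1548 entries, or 15.3% of those compared, and below all 4 in 1547, or 15.3%. The gap between sides is the ratio, on RPKM + 1, of the nearest libraries of the 2 sides. It was at least 2-fold in 132 entries above (1.31%) and 125 below (1.24%). Without KAI1 overexpression the 4 counts were 3404, 3342, 697 and 380, and without knockdown control replicate 1 they were 2435, 2761, 209 and 221, since 1 library must then lie beyond the other 4 in place of 2. The scale understates the gap of low genes. An entry that reaches the mean of 1 only through its high side had to differ: among the entries above, the other 4 averaged under 1 RPKM in 114, of which 32 are in the 2-fold group, and among those below the mast-gene-rich libraries did so in 194, of which 66 are. Counts over lists are read with that limit and beside the share of 15.3% each way over all entries. In bulk RNA, fewer cells of a type and less RNA per cell cannot be told apart. The estimated depth was 18300000 and 18800000 reads in the mast-gene-rich libraries and 9520000, 12300000, 18700000 and 24900000 in the other 4, so the sides overlap in depth.

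Just inside the mean of 1 RPKM stood Gm614 at 1.0011, and just outside Phf21b at 0.9992. Just inside the 2-fold gap were Ndst1 above (2.0111-fold) and Hmgb3 below (2.0038-fold), and just outside were Iqgap1 (1.9909-fold) and Ms4a3 (1.9898-fold).

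**Figure D1:**
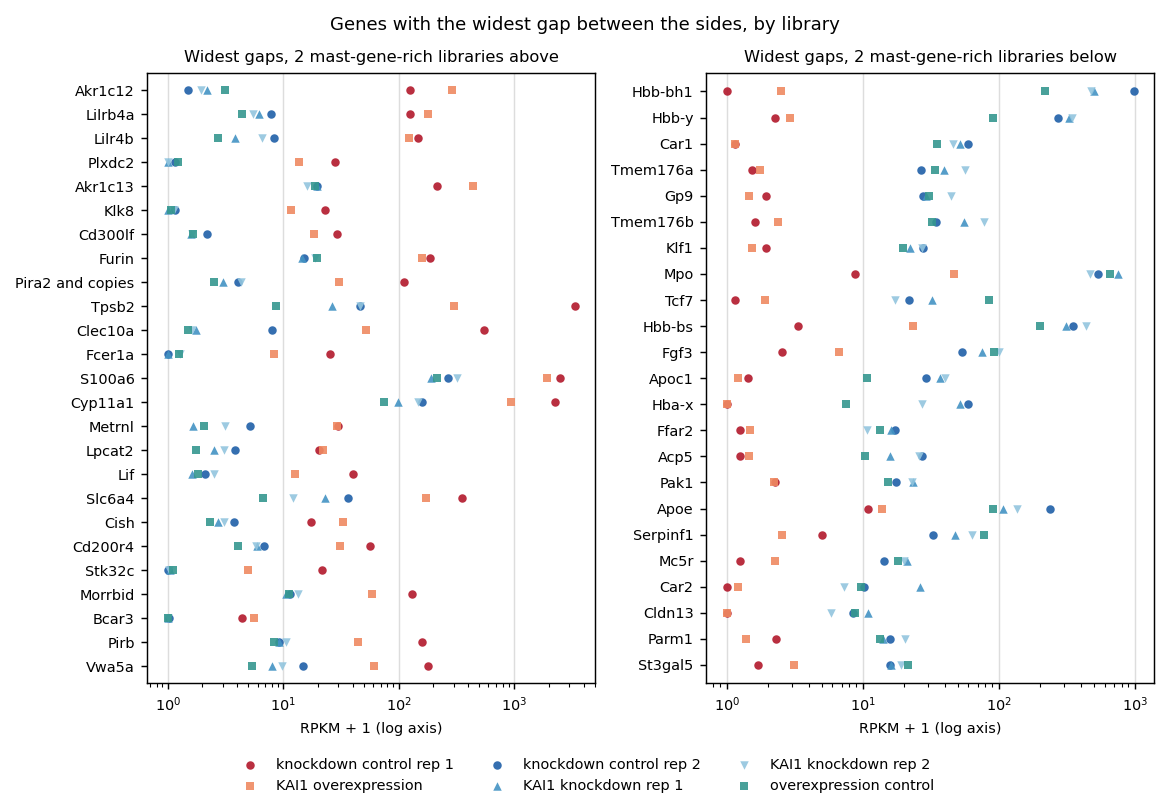
RPKM + 1 on a log axis for genes among the 25 with the widest gap in each direction, with 1 point per library. The red and orange points (knockdown control replicate 1 and KAI1 overexpression) lie to the right of the other 4 in the left panel and to the left of them in the right panel, as the choice of genes fixes.

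Genes with the widest gaps above were mostly not granule proteases. Akr1c12 (chromosome 13, 4267418 to 4278645) had the widest gap above outside the small RNAs, 40.3-fold, at 124 and 288 RPKM in the mast-gene-rich libraries and 0.509, 1.18, 0.949 and 2.11 RPKM in the other 4. Its neighbour Akr1c13 stood at 215 and 441 RPKM against 18.7, 18.8, 15 and 18 RPKM, and both were higher in KAI1 overexpression than in knockdown control replicate 1. The genes are close copies, and how reads divide between them is uncertain. Inhibitory and activating receptors of the immunoglobulin family came next. Lilrb4a, an inhibitory receptor known from mast cells, stood at 124 and 179.5 RPKM against 6.83, 5.18, 4.52 and 3.42 RPKM, and Lilr4b, its activating-type neighbour, at 147 and 123 RPKM against 7.32, 2.8, 5.55 and 1.74 RPKM. Cd300lf, an inhibitory lipid receptor, was at 28.3 and 17.5 RPKM against 0.604 to 1.18 RPKM, Pirb at 159 and 43.7 RPKM against 7.4 to 9.55 RPKM and Cd200r4 at 55.3 and 30.1 RPKM against 3.03 to 5.83 RPKM. An entry shared by Pira2, Lilra6 and Gm14548 was at 111 and 29.6 RPKM against 1.52 to 3.29 RPKM. These receptor families have many near-identical members, and the reads of each entry are uncertain for that reason.

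Processing enzymes and transporters also stood apart. Furin, a convertase that cleaves proproteins in the secretory route, was at 185 and 159 RPKM against 14.3, 13.4, 17.8 and 18.5 RPKM, a gap of 8.2-fold with little spread inside either side. Klk8, a secreted serine protease, was at 22.2 and 10.7 RPKM against 0.167, 0, 0.128 and 0.0639 RPKM. Cyp11a1, which makes pregnenolone from cholesterol as the first step of steroid synthesis, was at 2282 and 947 RPKM against 159.5, 97.4, 147 and 74.4 RPKM. Klk8 was thus close to absent from the other 4 libraries, while Furin and Cyp11a1 were measured in all 6. Slc6a4, the serotonin transporter, stood at 357 and 172 RPKM against 35.7, 22.2, 11.1 and 5.65 RPKM. Lpcat2, an enzyme that makes platelet activating factor, stood at 19.4 and 21.1 RPKM against 0.771 to 2.84 RPKM. S100a6, a calcium-binding protein, was the most abundant of the 25 in KAI1 overexpression, at 2512 and 1919 RPKM against 266, 188, 318 and 215 RPKM.

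Signalling genes and others completed the 25 widest gaps above. Lif, a cytokine, was at 39.2 and 11.8 RPKM against 0.622 to 1.52 RPKM, and Cish, an inhibitor of cytokine receptor signalling that Stat5 is known to induce, at 16.3 and 31.9 RPKM against 1.33 to 2.72 RPKM. Clec10a, a galactose-binding lectin receptor, was at 553 and 51.4 RPKM against 6.99, 0.75, 0.609 and 0.503 RPKM. Knockdown control replicate 1 was far above KAI1 overexpression, which in turn was well above the other 4. Morrbid, a long noncoding RNA known for survival of myeloid cells, was at 129 and 58 RPKM against 9.51 to 12.4 RPKM. Plxdc2, a membrane protein, was at 27.1 and 12.6 RPKM against 0 to 0.226 RPKM, Metrnl, a secreted protein, at 29.1 and 28.4 RPKM against 0.669 to 4.17 RPKM, Stk32c, a kinase, at 20.8 and 3.96 RPKM against 0 to 0.106 RPKM, Bcar3, a signalling adaptor, at 3.37 and 4.64 RPKM against 0 to 0.0302 RPKM, and Vwa5a at 178 and 60.8 RPKM against 4.33 to 13.8 RPKM. Plxdc2, Bcar3 and Stk32c were listed at 0 in at least 1 of the other 4 libraries.

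Granule proteases were all measured, with a mean of 1 RPKM or more in 13 of 13. The sides did not overlap in 9, all above, and the gap was at least 2-fold in 5. Mcpt4, Mcpt9, Gzmb and Prss34 had gaps of only 1.01-fold to 1.16-fold. Mast cell proteases set the sides apart, so these counts were fixed in part by that choice. The median difference of side medians was 2.71 on the log2 scale, beside -0.03 over all 10112 entries. That median was 1.78 without knockdown control replicate 1 and 4.15 without KAI1 overexpression; for later lists it is given in brackets, with its value after a library is left out where that moves it by over 1.5 times or turns its sign. After Tpsb2, the gaps were widest for the chymase Cma1 (22310 and 8629 RPKM against 2618, 1364, 1149 and 879 RPKM), the tryptase Tpsg1 (354 and 20.5 RPKM against 7.1, 1.28, 5.58 and 0.564 RPKM) and the chymase Cma2 (286 and 21.2 RPKM against 9.07, 4.86, 7.91 and 5.55 RPKM). Tpsab1 stood at 224 and 15 RPKM against 6.93, 2.02, 6.14 and 0.0402 RPKM. In each of them knockdown control replicate 1 was the highest library and KAI1 overexpression the next. A further 4 proteases were picked after their values were seen. Mcpt8 stood at 159.6 and 3908 RPKM against 389, 234, 116 and 491 RPKM and Gzmb, granzyme B, at 554 and 2775 RPKM against 447, 365, 478 and 223 RPKM. Both were highest in KAI1 overexpression, and Mcpt8 overlapped while Gzmb did not. Mcpt2 (34430 and 7972 RPKM against 8582, 3726, 3375 and 2542 RPKM) and the carboxypeptidase Cpa3 (6236 and 3895 RPKM against 4110, 2930, 2355 and 2246 RPKM) were abundant everywhere and overlapped. Mcpt and Tps genes are related in sequence, and reads may be divided wrongly among them.

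**Figure D2:**
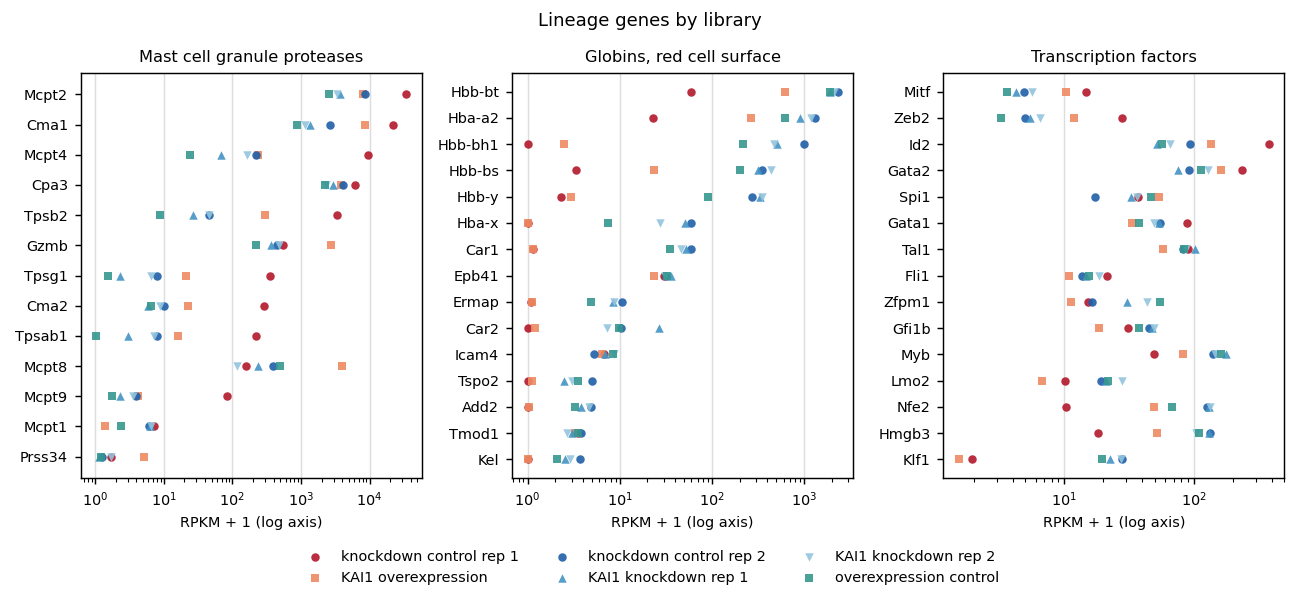
RPKM + 1 on a log axis by library for the 13 granule proteases (left), for 15 globin and red cell surface genes with a mean of 1 RPKM or more (middle) and for 15 transcription factors (right). The proteases spread over several orders with knockdown control replicate 1 mostly highest, the globins are lowest in that library, and most transcription factors lie within a few fold.

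Mediator genes other than proteases separated less. Of 11, all with a mean of 1 RPKM or more, 4 lay above, 0 below and 7 overlapped (median 1.12, and 0.21 without knockdown control replicate 1). Tph1, which makes serotonin from tryptophan, stood at 266 and 41.2 RPKM against 10.4, 1.43, 3.4 and 0.917 RPKM. Ndst1 and Ndst2, which sulfate heparin, stood at 3.54 and 3.87 RPKM against 0.822 to 1.26 RPKM and 416 and 269.9 RPKM against 133 to 154 RPKM, and Srgn, the core protein of granule proteoglycan, at 578 and 734 RPKM against 400.3 to 512 RPKM. Hdc, which makes histamine, stood at 902 and 52.8 RPKM against 150.4, 32.6, 64.2 and 25.1 RPKM and overlapped, since knockdown control replicate 2 held more than KAI1 overexpression. Ddc (30 and 1.29 RPKM against 2.51, 0.247, 1.06 and 0.918 RPKM) and Maob (21.4 and 0.92 RPKM against 1.78, 0.294, 0.194 and 0 RPKM), enzymes of amine synthesis and breakdown, were high in knockdown control replicate 1 alone. The last 3 were picked after their values were seen.

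Lipid mediator genes were mixed, with 3 of 7 above and 2 below (median 0.42, and 0.26 without knockdown control replicate 1 or -0.01 with no filter on low values). Hpgds, the haematopoietic prostaglandin D synthase, stood at 69.5 and 26.3 RPKM against 7.48, 2.41, 4.27 and 2.61 RPKM. Alox5ap, which presents arachidonic acid for leukotriene synthesis, was at 1239 and 535 RPKM against 302 to 438 RPKM and Lta4h at 30.6 and 26.5 RPKM against 21 to 25.2 RPKM. Below were Ptgs1, a cyclooxygenase, at 0.402 and 0.0355 RPKM against 0.497 to 4.61 RPKM and Pla2g4a, a phospholipase that frees arachidonic acid, at 4.3 and 6.9 RPKM against 10.4 to 14.1 RPKM. Alox5 was under 1 RPKM in all 6 libraries.

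The IgE receptor showed 1 subunit that was close to absent from the other 4 libraries. Fcer1a, the IgE-binding chain (chromosome 1, 175151402 to 175157360), stood at 24.2 and 7.41 RPKM against 0, 0, 0.289 and 0.261 RPKM. Ms4a2, the beta chain, stood at 39.6 and 5.86 RPKM against 3.71, 1.25, 2.71 and 0.443 RPKM. Fcer1g, the signalling chain shared with other receptors, was high everywhere, at 4608 and 3623 RPKM against 3309, 2223, 2173 and 1488 RPKM. Adora3, an adenosine receptor, stood at 270 and 118 RPKM against 59.1, 28.9, 36 and 21.7 RPKM and Il1rl1, the receptor of IL-33, at 166 and 56 RPKM against 32.3, 26.8, 32.6 and 19.7 RPKM. Lilrb4a and Clec10a, given above, belong to the same list. In all, 9 of 12 receptors with a mean of 1 RPKM or more lay above and 1 below (median 2.06, and 1.11 without knockdown control replicate 1). The one below was Siglecf, an inhibitory lectin, at 0.441 and 0.451 RPKM against 3.73, 4.1, 5.13 and 2.37 RPKM. Mrgprb2, C5ar1 and P2rx7 were under 1 RPKM in all 6.

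Signalling genes downstream of that receptor differed by smaller amounts, with 12 of 15 above, 1 below and 2 overlapping (median 0.96). Prkcb, a protein kinase C, stood at 28.6 and 6.5 RPKM against 1.37, 0.836, 1.02 and 0.265 RPKM, and Lat2, an adaptor of mast and B cells, at 578 and 499.6 RPKM against 136, 131, 177 and 125 RPKM. Grap2 and Gab2, also adaptors, were at 8.68 and 2.52 RPKM against 0.611 to 0.998 RPKM and 12.2 and 10.2 RPKM against 4.98 to 5.88 RPKM. Prkcb and Lat2 had the only gaps of 2-fold or more in this list. Plcg2, a phospholipase C, was below at 27 and 30.4 RPKM against 32.7 to 44.5 RPKM. Syk, a kinase of the cascade, overlapped at 31.3 and 18.9 RPKM against 30, 40.9, 39.1 and 27 RPKM.

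Receptors for haematopoietic cytokines lay in both directions. Il4ra, the IL-4 receptor chain, stood at 74 and 39.3 RPKM against 7.68, 6.17, 9.17 and 4.05 RPKM. Csf2rb and Csf2rb2, the beta chains shared by the IL-3, IL-5 and GM-CSF receptors or used by IL-3 alone, stood at 352 and 232 RPKM against 106, 83.6, 86.1 and 67 RPKM and 377 and 196 RPKM against 70.9, 56.1, 63.9 and 42.2 RPKM, and both are close copies whose reads may be mixed. Il3ra was at 17.2 and 15.3 RPKM against 2.9 to 7.43 RPKM. Kit, the receptor for the stem cell factor in the medium, was above at 437 and 189 RPKM against 83.3, 134, 109.7 and 107 RPKM. Below were Il9r (1.63 and 2.72 RPKM against 3.79 to 6.27 RPKM), Il5ra (0.794 and 0.691 RPKM against 1.33 to 2.41 RPKM) and Ifngr1 (5.38 and 3.44 RPKM against 7.03 to 10.8 RPKM), among others. The counts were 9 above, 4 below and 5 overlapping of 18 (median 0.81, 0.53 without knockdown control replicate 1 and 1.28 without KAI1 overexpression). Epor, the erythropoietin receptor, overlapped at 15.6 and 2.27 RPKM against 14.8, 9.63, 12.7 and 10.4 RPKM: it was low in KAI1 overexpression and not in knockdown control replicate 1. Flt3, Csf3r and Il17rb were under 1 RPKM in all 6 libraries.

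Among secreted cytokines and chemokines 6 of 14 lay above and 1 below (median 1.41, and 0.78 without knockdown control replicate 1). Besides Lif, the widest gaps were those of Il13, at 70.7 and 23.2 RPKM against 6.62, 3.53, 3.22 and 1.71 RPKM, and of Ccl4 (2.98 and 68.8 RPKM against 1.23, 0.79, 0.312 and 0.548 RPKM) and Ccl3 (3.31 and 11.7 RPKM against 1.75, 0.492, 1.13 and 0 RPKM), chemokines for monocytes and lymphocytes. Ccl4 was much higher in KAI1 overexpression than in any other library. Osm, oncostatin M, had the same form at 0.513 and 32.8 RPKM against 0, 0, 0 and 0.0839 RPKM, and Ccl9 overlapped at 5.34 and 217 RPKM against 22.7, 27.1, 13.2 and 9.56 RPKM. Csf1 had the reverse form at 67.9 and 1.72 RPKM against 1.58, 0.252, 1.18 and 0.985 RPKM, with 1 high library, knockdown control replicate 1. Cxcl2, a neutrophil chemokine, was below at 0.221 and 0.645 RPKM against 1.95 to 4.92 RPKM. Il5, Csf2, Cxcl10, Areg and Il1b were under 1 RPKM in all 6.

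Transcription factors of the mast and myeloid programme separated in 8 of 16, with 6 above and 2 below (median 0.34). A gap of 2-fold was seen in 0 of them, beside 1.31% of all entries above and 1.24% below. Mitf (chromosome 6, 97757052 to 97971352) stood at 13.6 and 9.38 RPKM against 3.92, 3.22, 4.62 and 2.61 RPKM, Zeb2 at 27 and 11 RPKM against 3.96, 4.4, 5.53 and 2.25 RPKM and Id2 at 379 and 134 RPKM against 92.2, 51.3, 64.9 and 55.9 RPKM. Gata2 (chromosome 6, 88148658 to 88157026) stood at 235 and 161 RPKM against 91, 74.3, 128 and 112 RPKM. Stat5a (27.4 and 33.3 RPKM against 50.9 to 69.9 RPKM) and Lmo4 (34.6 and 53.8 RPKM against 58.9 to 109.6 RPKM) were below. Spi1, the factor PU.1, overlapped at 36.4 and 52.5 RPKM against 16.1, 31.9, 35.6 and 46.1 RPKM. Irf8, Irf4 and Maf were under 1 RPKM throughout.

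The factors of the erythroid and megakaryocyte programme did not differ as 1 group. Of 15, 7 lay below, 1 above and 7 overlapped (median -0.95, and -0.58 without KAI1 overexpression). After Klf1, the widest gaps below were those of Hmgb3, a chromatin protein of progenitors (17.2 and 51.2 RPKM against 132, 129, 104 and 109.5 RPKM), Lmo2, a bridging factor (9.07 and 5.79 RPKM against 18.2, 20.1, 26.8 and 20.7 RPKM), and Myb (48.5 and 82.2 RPKM against 139, 176, 145 and 161 RPKM). Nfe2, which binds globin control regions, was at 9.29 and 48.2 RPKM against 126, 131, 133 and 67.2 RPKM. Gata1 (chromosome X, 7536386 to 7544941) overlapped at 87.2 and 32.3 RPKM against 53.5, 52.6, 48.5 and 36.7 RPKM, with its highest and its lowest level both on the mast-gene-rich side. Tal1 (89.6 and 57.1 RPKM against 81.9 to 101 RPKM) overlapped too. Zbtb7a, a repressor of fetal globin, was the 1 member above, at 20.8 and 13.2 RPKM against 3.92 to 11 RPKM. Bcl11a and Sox6 were under 1 RPKM in all 6 libraries.

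Globins were far lower on the mast-gene-rich side, and Hbb-bh1 had the widest gap of all entries outside the small RNAs, 87.1-fold. The 6 entries with a mean of 1 RPKM or more all lay below, each by more than 2-fold (median -5.23). Hbb-bh1, an embryonic beta-like globin (chromosome 7, 110990152 to 110991676), stood at 0 and 1.51 RPKM in the mast-gene-rich libraries and 988, 501, 474 and 218 RPKM in the other 4. Hbb-y, also embryonic, stood at 1.28 and 1.93 RPKM against 270.5, 329.6, 344 and 90.3 RPKM, and the embryonic alpha-like Hba-x at 0 and 0 RPKM against 58.2, 50.6, 26.1 and 6.49 RPKM. The adult genes were lower on the mast-gene-rich side as well but kept more RNA there: Hbb-bt stood at 57.5 and 624 RPKM against 2304, 1901, 2117 and 1898 RPKM, Hbb-bs at 2.36 and 22.4 RPKM against 351, 312, 435 and 199.5 RPKM and Hba-a2 at 21.7 and 263 RPKM against 1302, 891, 1178 and 611 RPKM. For each adult globin KAI1 overexpression lay between knockdown control replicate 1 and the other 4. The adult alpha and beta genes have near-identical copies, so their reads may be split between entries. Hbq1a and Hbq1b were under 1 RPKM in all 6.

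Genes of haem synthesis and iron uptake lay below or overlapped. All 16 had a mean of 1 RPKM or more, of which 8 lay below, 0 above and 8 overlapped (median -0.70). Tfr2, a transferrin receptor of the erythroid line, stood at 0.303 and 0.798 RPKM against 5.08, 6.97, 6.44 and 4.38 RPKM and Alad, the second enzyme of haem synthesis, at 11.3 and 9.31 RPKM against 38, 38.8, 34.2 and 38.8 RPKM. Alas2, the erythroid form of the first enzyme, was low everywhere at 0.0561 and 0.0273 RPKM against 2.59, 1.79, 0.824 and 0.971 RPKM. Fech (34 and 14.5 RPKM against 20.5 to 28.3 RPKM) and Tfrc (6.85 and 14.7 RPKM against 13.5 to 26.6 RPKM) overlapped.

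Red cell membrane and surface genes lay below in 11 of 13, 9 of them by 2-fold or more (median -1.61). Car1, a carbonic anhydrase of red cells (chromosome 3, 14766214 to 14808365), stood at 0.147 and 0.145 RPKM against 58.1, 51.2, 45.4 and 34 RPKM and its neighbour Car2 at 0 and 0.208 RPKM against 9.31, 25.6, 6.32 and 8.76 RPKM. Ermap, a red cell adhesion protein, was at 0.0816 and 0.12 RPKM against 3.83 to 9.58 RPKM. Epb41 was nominally below with almost no gap (29.5 and 22.8 RPKM against 30.4, 34.9, 29.9 and 31.7 RPKM), and Icam4 and Tmod1 overlapped. Slc4a1, Sptb, Ank1 and Aqp1, which mark later red cells, were under 1 RPKM in all 6 libraries.

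**Figure D3:**
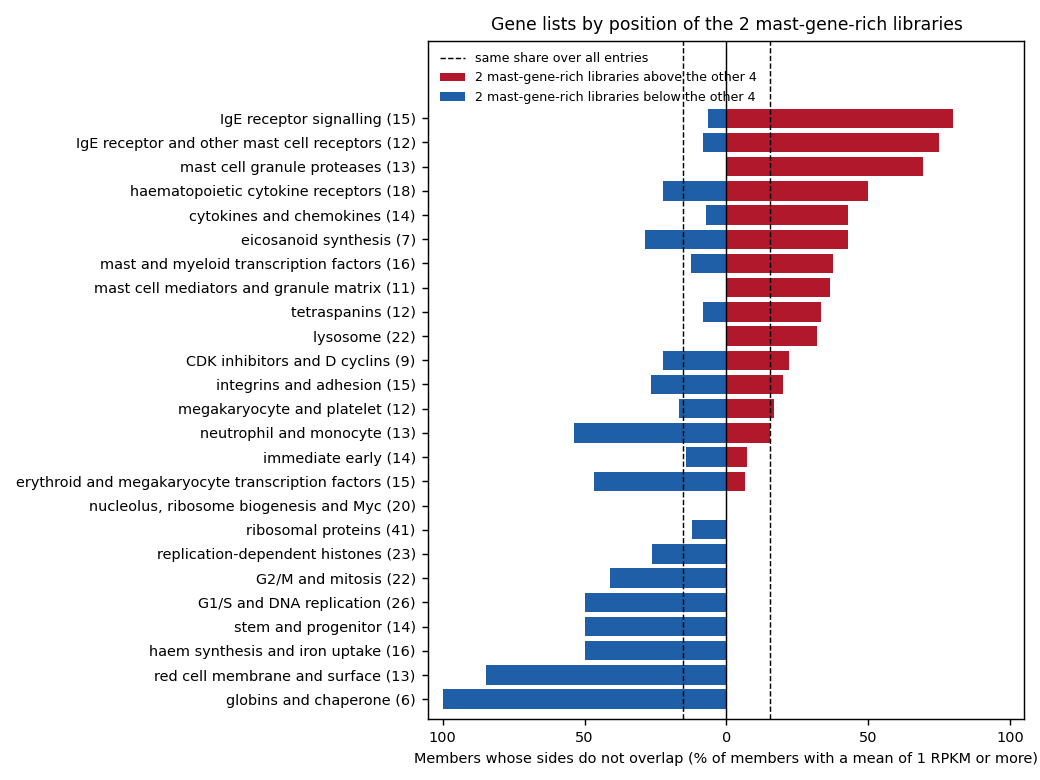
Share of each list's members, among those with a mean of 1 RPKM or more (number in brackets), whose mast-gene-rich libraries lay above (red, to the right) or below (blue, to the left) all of the other 4, with the share over all 10112 entries dashed (15.3% each way). IgE receptor signalling has the highest share above (12 of 15) and the globins the highest below (6 of 6).

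Megakaryocyte and platelet genes had no common direction, with 2 above, 2 below and 8 overlapping of 12. These counts are close to the 15.3% each way over all entries. The median was -0.08, with 0.14 without knockdown control replicate 1, 0.50 without KAI1 overexpression and -0.03 without KAI1 knockdown replicate 2. Gp9, a platelet adhesion receptor subunit, was below at 0.959 and 0.467 RPKM against 26.9, 28.3, 43.6 and 29.8 RPKM, while Rab27b (26.3 and 22.2 RPKM against 3.15 to 8.37 RPKM), a regulator of granule release, and F2rl2 (29.7 and 39.3 RPKM against 7.67 to 11.4 RPKM), a thrombin receptor, were above. Treml1 was below at 0.239 and 0 RPKM against 0.46 to 6.17 RPKM. Pf4 and Ppbp, platelet chemokines, stood at 1541 and 67.9 RPKM against 729, 462, 947 and 479 RPKM and 550.4 and 30.8 RPKM against 31.1, 21.5, 26.5 and 20.6 RPKM, high in knockdown control replicate 1 and not in KAI1 overexpression. Gp6, Tubb1, Selp and Clec1b were under 1 RPKM throughout.

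Of the neutrophil and monocyte list 7 of 13 lay below and 2 above (median -1.35, and 0.01 with no filter on low values). Mpo, myeloperoxidase (chromosome 11, 87607286 to 87617914), stood at 7.84 and 45.8 RPKM against 538, 750.3, 469.8 and 661 RPKM. Lyz2 and Lyz1, lysozymes, stood at 0.499 and 0.158 RPKM against 4.66 to 14.7 RPKM and 0.0566 and 0.00617 RPKM against 1.34 to 3.66 RPKM, and Ms4a3, a marker of granulocyte and monocyte progenitors, at 0.601 and 3.39 RPKM against 18.8, 12.6, 12.4 and 7.73 RPKM. Above were Ctsg, cathepsin G, at 1080 and 1295 RPKM against 643, 444, 434 and 1034 RPKM and the chemokine receptor Ccr2 at 4.29 and 15.4 RPKM against 2.37, 1.62, 2.04 and 1.03 RPKM. Ly6c2 overlapped at 0.124 and 85.8 RPKM against 14.7, 4.66, 2.53 and 26.2 RPKM, with KAI1 overexpression highest. The 5 summed markers of the type (Mpo, Elane, Prtn3, Ltf and S100a8) were 7.9 and 45.8 RPKM against 549, 753, 475 and 665 RPKM, nearly all of it Mpo. Elane, Ltf, Camp, Ngp, Lcn2, Mmp8, Mmp9 and Fcnb were under 1 RPKM in all 6.

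Stem and progenitor genes lay below in 7 of 14 and above in 0 (median -0.77, and -0.48 without knockdown control replicate 1). Tcf7, a factor of the Wnt route that had the widest gap (chromosome 11, 52066106 to 52095752), stood at 0.144 and 0.912 RPKM against 20.7, 31.4, 16.4 and 83.3 RPKM, with the overexpression control highest. Hlf, a transcription factor known from stem cells, was at 0.231 and 0.26 RPKM against 2.84, 3.17, 2.55 and 6.7 RPKM. Sox4 was at 3.44 and 33 RPKM against 43.5, 84.1, 93.2 and 109.8 RPKM, where KAI1 overexpression came close to the other 4 and knockdown control replicate 1 did not. Ly6a, the antigen Sca-1, overlapped at 748 and 51.5 RPKM against 217, 95.9, 206 and 125 RPKM. Mycn overlapped at 0.69 and 18.4 RPKM against 1.41, 2.83, 2.52 and 8.87 RPKM, highest in KAI1 overexpression. Procr, Hoxa5, Hoxa7, Hoxa9, Hoxa10, Mecom and Tek were under 1 RPKM in all 6 libraries.

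Low-level lymphoid genes were found on the other side. Of 20 listed, 4 had a mean of 1 RPKM or more, 3 lay below and 1 overlapped (median -1.35). Cd7 stood at 0.174 and 1.3 RPKM against 8.16, 7.24, 9.71 and 6.54 RPKM, Dntt, the terminal transferase, at 0 and 0.304 RPKM against 1.75, 5.95, 5.25 and 2.91 RPKM and Vpreb1 at 0.937 and 1.05 RPKM against 1.85 to 2.32 RPKM. The defining genes Cd79a, Cd3e, Rag1, Rag2, Ebf1, Pax5, Vpreb3, Igll1, Blnk, Cd3d, Cd3g, Bcl11b, Notch1 and Ccr9 were under 1 RPKM in all 6. The same held for all 8 eosinophil genes (Prg2, Prg3, Epx, Ear1, Ear2, Ear6, Ccr3 and Alox15) and for 14 of 18 macrophage and dendritic cell genes, namely C1qa, C1qb, C1qc, Mrc1, Marco, Siglec1, Vsig4, Cd163, Batf3, Xcr1, Clec9a, Siglech, H2-Aa and H2-Ab1. In that list Zbtb46 was below at 0.886 and 1.2 RPKM against 1.3 to 1.92 RPKM. Of 12 stromal and endothelial genes, 7 were under 1 RPKM in all 6 (Col3a1, Dcn, Lum, Pdgfra, Thy1, Cdh5 and Kdr). Pecam1 was below at 25.1 and 32.6 RPKM against 40.2 to 52 RPKM, and Pdgfrb, a growth factor receptor, overlapped at 49.8 and 9.75 RPKM against 11.5, 13.2, 13.8 and 18.4 RPKM.

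Adhesion genes had no common direction, and their counts stand beside shares of 15.3% above and 15.3% below over all entries. Among 15 adhesion genes 3 lay above, 4 below and 8 overlapped (median 0.29, -0.38 without knockdown control replicate 1 and 0.94 without KAI1 overexpression, so that its sign rests on 1 library; it was 0.17 without knockdown control replicate 2 or KAI1 knockdown replicate 2, and -0.35 at a mean of 5 RPKM or more). Itgb7 (75.6 and 45 RPKM against 12.4, 11.4, 18.8 and 14.2 RPKM) and Itga9 (7.43 and 5.76 RPKM against 1.41, 1.19, 0.987 and 0.618 RPKM) were above, with Selplg, the selectin ligand, at 164 and 126 RPKM against 51.1 to 85.8 RPKM. Below were Itgb2 (1.84 and 2.63 RPKM against 10.8, 7.82, 15.1 and 8.64 RPKM), Itga6 (8.39 and 8.82 RPKM against 18.3 to 24.3 RPKM), Itga4 (3.82 and 7.82 RPKM against 13 to 19.7 RPKM) and Itgal (4.5 and 17.7 RPKM against 23.8 to 35.1 RPKM). Itgb7 pairs with Itga4, and Itgb2 with Itgal. Cd44 was high in knockdown control replicate 1 alone (21.2 and 0.0112 RPKM against 0.756, 0.0858, 1.47 and 0.561 RPKM).

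Among tetraspanins, the family of KAI1, 4 of 12 lay above and 1 below (median 0.38, 0.02 without knockdown control replicate 1, 0.64 without KAI1 overexpression and 0.19 without the overexpression control). Of all entries, 15.3% lay above and 15.3% below. Cd82 itself (chromosome 2, 93259259 to 93310031) stood at 43.9 and 15.2 RPKM in the mast-gene-rich libraries and 13.8, 7.66, 6.91 and 11.9 RPKM in the other 4. It was highest in knockdown control replicate 1, and KAI1 overexpression was only slightly above knockdown control replicate 2. Cd53 stood at 69.3 and 43.3 RPKM against 23.8, 13.9, 11.9 and 16 RPKM, Cd63, a granule membrane protein, at 847 and 919.6 RPKM against 525, 539, 529 and 549.5 RPKM and Tspan4 at 24.7 and 18.8 RPKM against 10.9 to 17.1 RPKM. Tspan3 was below at 1.53 and 2.11 RPKM against 2.25 to 11.8 RPKM. Lysosomal genes lay above in 7 of 22 and below in 0 (median 0.59, 0.05 without knockdown control replicate 1 and 0.92 without KAI1 overexpression). Ctsd, cathepsin D, stood at 967 and 556 RPKM against 194, 193, 285 and 202 RPKM, Glb1, a galactosidase, at 65.8 and 28.5 RPKM against 15.7 to 20.1 RPKM and Atp6v1h, a proton pump subunit, at 12.4 and 10.3 RPKM against 6.92 to 8.54 RPKM. Ctsh, Ctsl and Ctss were under 1 RPKM in all 6 libraries.

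Genes of DNA replication and mitosis lay below or overlapped. In the G1/S and DNA replication list 13 of 26 lay below and 0 above (median -0.35). In the G2/M list 9 of 22 lay below and 0 above (median -0.45, and -0.29 without knockdown control replicate 1). Neither list held a gap of 2-fold, which 1.24% of all entries had below and 1.31% above, so lists of this length may well hold 0. Tyms, thymidylate synthase, had the widest gap at 17.5 and 23.1 RPKM against 38.2, 37.4, 34.6 and 45.2 RPKM, followed by Cdc6 at 6.7 and 8.28 RPKM against 11 to 12.9 RPKM, Mcm6 at 60.9 and 75.2 RPKM against 95.7 to 118 RPKM and Mcm4 at 20.4 and 21.1 RPKM against 25.5 to 29.9 RPKM. Ccnb2 (42.3 and 52 RPKM against 65.1 to 83.8 RPKM), Ccna2 (31.9 and 34.2 RPKM against 41.5 to 50.1 RPKM), Bub1b (30.4 and 42 RPKM against 50.5 to 65.3 RPKM) and Birc5 (117 and 114 RPKM against 128 to 155 RPKM) led the mitotic genes. Mki67 overlapped at 46 and 46 RPKM against 57.7, 53.7, 66.1 and 40.7 RPKM. Of the 9 CDK inhibitors and cyclins with their kinases, Ccnd2, a D-type cyclin, was above at 67.2 and 66.6 RPKM against 10.6, 23.6, 18.6 and 23.9 RPKM and Cdkn1a, the inhibitor p21, at 628 and 412 RPKM against 187, 282, 268 and 344 RPKM, while Cdk6 (53.7 and 60.9 RPKM against 109.8 to 133 RPKM) and Cdk4 (202 and 283 RPKM against 359.5 to 419.7 RPKM) were below. The median of this list was -0.02, with -0.50 without knockdown control replicate 1 and 0.58 without KAI1 overexpression. It was 0.07 without KAI1 knockdown replicate 2 or the overexpression control. Leaving out knockdown control replicate 2 or KAI1 knockdown replicate 1 gave -0.12. Cdkn1c and Cdkn2b were under 1 RPKM in all 6.

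Most growth-related genes overlapped between the sides, as did 7017 of all 10112 entries, of which 15.3% lay above and 15.3% below. All 20 genes of nucleolus, ribosome biogenesis and Myc overlapped (median -0.27, 0.32 without knockdown control replicate 1 and -0.95 without KAI1 overexpression), and the median of knockdown control replicate 1 minus KAI1 overexpression over them was -1.27 on the log2 scale, beside 0.03 over all entries. Of 41 ribosomal protein genes 5 lay below and 36 overlapped (median -0.43, -0.10 without knockdown control replicate 1 and -0.76 without KAI1 overexpression), with Rpl4 at 590.3 and 1049 RPKM against 1193 to 1448 RPKM, Rpl3 at 1235 and 1910 RPKM against 1978 to 3010 RPKM and Rpl22 at 223 and 431 RPKM against 439.6 to 577 RPKM. Processed copies of such genes are common, and their values are uncertain for that reason. Replication-dependent histone genes lay below in 6 of 23 (median -0.94, -0.51 without knockdown control replicate 1, and -0.52 without KAI1 knockdown replicate 2 or without the overexpression control), and H3c1 had the widest gap at 10.2 and 19.4 RPKM against 30.3, 47.8, 60.4 and 89.2 RPKM. H2bc14 was at 15.4 and 22.9 RPKM against 32.9 to 87.2 RPKM, H2bc3 at 13 and 18.5 RPKM against 24.8 to 55 RPKM and H1f4 at 6.9 and 8.69 RPKM against 11.1 to 21.8 RPKM. These transcripts lack poly(A) tails and their copies are near-identical, so the values are uncertain. Immediate early genes overlapped in 11 of 14 (median 0.40, -0.79 without knockdown control replicate 1, 1.31 without KAI1 overexpression, 0.26 without KAI1 knockdown replicate 2 and -0.01 at a mean of 5 RPKM or more), and the sign of that median rests on knockdown control replicate 1. Btg2, a growth inhibitor, was below at 0.624 and 1.12 RPKM against 10.7, 19.9, 8.52 and 10.4 RPKM and Dusp2 at 68.2 and 30.3 RPKM against 89.2 to 190.5 RPKM. Fosb was nominally above at 7.08 and 0.145 RPKM against 0.105, 0.0808, 0.0399 and 0.09 RPKM. It was near 0 in all libraries except knockdown control replicate 1. Fos was high in knockdown control replicate 1 alone (116 and 0.45 RPKM against 4.5, 7.79, 3.57 and 4.45 RPKM). Fosl1, Nr4a1 and Atf3 were under 1 RPKM in all 6.

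The remaining widest gaps below lay outside these lists. Tmem176a and Tmem176b, neighbouring membrane protein genes, stood at 0.54 and 0.76 RPKM against 25.9, 38.9, 55.8 and 33.1 RPKM and 0.618 and 1.37 RPKM against 33.4, 54.3, 76.9 and 31.6 RPKM. Apoe and Apoc1, apolipoproteins that are neighbours too, stood at 10 and 12.8 RPKM against 237, 106, 136 and 90.5 RPKM and 0.428 and 0.208 RPKM against 28.4, 36.3, 39 and 9.77 RPKM. Fgf3, a growth factor, stood at 1.57 and 5.68 RPKM against 52.4, 74.2, 100.2 and 91.2 RPKM and Serpinf1, a secreted serpin, at 4.06 and 1.57 RPKM against 32.1, 47, 62.9 and 77.5 RPKM. Acp5, an acid phosphatase, was at 0.254 and 0.452 RPKM against 9.38 to 26.4 RPKM, Pak1, a kinase, at 1.27 and 1.22 RPKM against 14.4 to 22.6 RPKM, Ffar2, a receptor for short-chain fatty acids, at 0.256 and 0.486 RPKM against 9.76 to 16.3 RPKM and Mc5r, a melanocortin receptor, at 0.253 and 1.28 RPKM against 13.4 to 20.2 RPKM. Parm1 was at 1.32 and 0.377 RPKM against 12.3 to 19.6 RPKM, St3gal5, which makes the ganglioside GM3, at 0.694 and 2.12 RPKM against 14.9 to 20.4 RPKM and Cldn13, a claudin, at 0 and 0 RPKM against 4.83 to 9.99 RPKM. Apoe kept the highest level of these genes on the mast-gene-rich side, and Cldn13 was listed at 0 in both libraries there.

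The mast-gene-rich libraries were not alike. They were at least 2-fold apart from each other in 1365 entries (13.5%), while pairs among the other 4 were so in 257 to 786 entries. Knockdown control replicate 1 was at least 2-fold from each of the other 4 in 1875 to 2142 entries and KAI1 overexpression in 959 to 1172. In the 1548 entries above, knockdown control replicate 1 was the further of the 2 in 1166 (75.3%), and in the 1547 below in 1026 (66.3%). Of the other 4, KAI1 knockdown replicate 2 was most often nearest to the mast-gene-rich side in entries above (513) and the overexpression control in entries below (620). In the 132 entries at least 2-fold above, it was knockdown control replicate 2 (63, or 47.7%), with KAI1 knockdown replicate 2 in 41. KAI1 overexpression thus lay between knockdown control replicate 1 and the other 4 in most entries whose sides did not overlap, with Gzmb, Ccl4, Osm and the Akr1c genes as examples of the reverse order, picked after their values were seen.

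Entries can be chosen in 1 arm and read in the other with no library shared. In the knockdown arm, knockdown control replicate 1 lay at least 2-fold above all of the other 3 libraries in 737 entries and at least 2-fold below them in 444. Of those 737, 603 (81.8%) were higher in KAI1 overexpression than in its own control, where 50.4% of all entries were. By 2-fold or more, 247 (33.5%) were higher, where 4.62% of all entries were. The reverse, 2-fold lower in KAI1 overexpression, was seen in 22 (2.99%). Of the 444 entries, 358 (80.6%) were lower in KAI1 overexpression, where 49.3% of all entries were. By 2-fold or more, 175 (39.4%) were lower, where 5.16% of all entries were, while 19 (4.28%) were 2-fold higher. Both libraries were put on 1 side because of their mast genes, so these shares are a description. Without the mast cell lists the share higher was 81.2% of 706 entries, and of the 31 mast list entries 30 were higher.

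**Figure D4:**
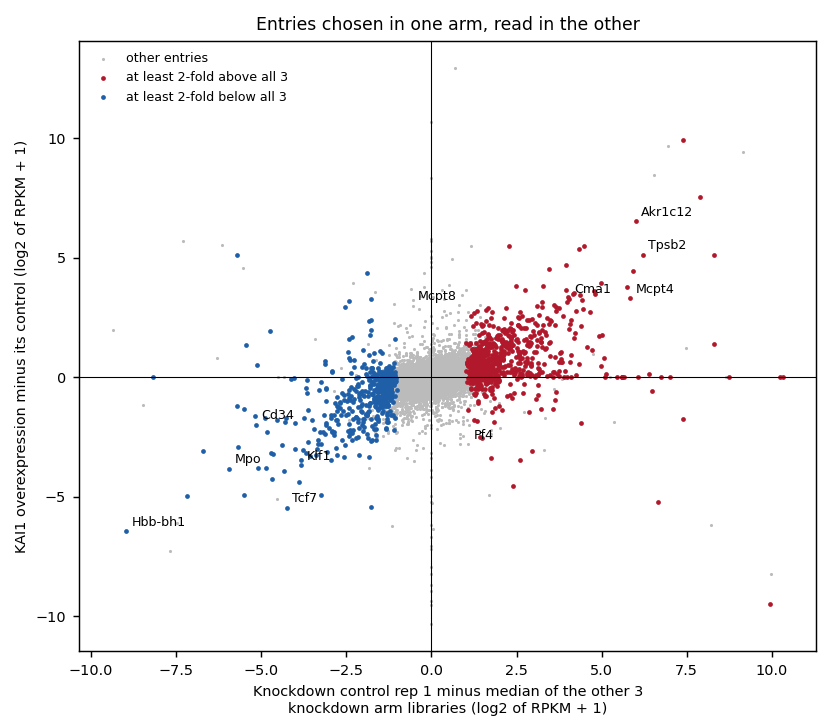
Each point is 1 of the 10112 entries, with knockdown control replicate 1 minus the median of the other 3 knockdown arm libraries on the x axis and KAI1 overexpression minus the overexpression control on the y axis, both as log2 of RPKM + 1. Red and blue mark the 737 and 444 entries at least 2-fold above or below all 3, most of which lie on the same side of 0 on the y axis.

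The entries that went the other way were picked after their values were seen. Ifitm1, an interferon-induced membrane protein, stood at 150.2 and 6202 RPKM against 4135, 3796, 4079.9 and 1608 RPKM: it was lowest in knockdown control replicate 1 and highest in KAI1 overexpression. Scin, an actin-severing protein, was at 53.6 and 219 RPKM against 164, 155, 134 and 102 RPKM, Tuba8, a tubulin, at 16.4 and 92.8 RPKM against 35.3, 34.1, 64.6 and 30.1 RPKM and Cdh17, a cadherin, at 0.238 and 34 RPKM against 5.59, 2.52, 8.94 and 2.79 RPKM. In the opposite order, Tmem9 stood at 107 and 0.188 RPKM against 15.7, 31.1, 19.3 and 26.7 RPKM, Grap, an adaptor, at 32 and 1.76 RPKM against 13.4, 10.3, 11.2 and 14.8 RPKM and Sapcd1 at 357 and 13.4 RPKM against 90, 46.6, 110 and 32.6 RPKM. In Tmem9 and Grap, KAI1 overexpression was the lowest of the 6 libraries and knockdown control replicate 1 the highest. Gml and Gml2, neighbours of Ly6a in the Ly6 gene family, behaved like Ly6a, at 94.6 and 0.973 RPKM against 27.4, 11.4, 7.37 and 15.6 RPKM and 103 and 0.376 RPKM against 33.6, 16.1, 9.03 and 14.1 RPKM.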

How the data were processed

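Total RNA of 6 EML libraries was sequenced on the Illumina GAIIx, per the labels. Values are RPKM in 1 table per library that the authors deposited, as the file headers say. The submitters' processing notes give the build mm9 and the tools TopHat2 2.0.9, Bowtie and Cufflinks, and settings, strandedness and poly(A) selection are not given in the sources used here. Of 23170 entries listed, 24 repeated an accession and locus (20 with identical values), which left 23146. Symbols came from RefSeq for 22840 and GENCODE for 125 entries, and 181 had none. Gene coordinates come from the deposited tables (mm9, starts counted from 1) and promoter windows are RefSeq on GRCm38.p6. RPKM is relative to all mapped reads, so abundant transcripts in 1 library lower the values of its other genes.

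Entries with a mean of 1 RPKM or more over all 6 libraries (10112) were compared on log2(RPKM + 1) with Python 3.11.15, pandas 2.3.3 and numpy 2.4.6. An entry counts as above or below when the mast-gene-rich libraries all lie beyond the other 4. No test was run, and no adjusted value is given, because the sides came from the values. The sides, the 29 gene lists and the named genes were chosen with earlier results of these data known. Genes are named as the markers, Cd82, the 25 widest gaps per direction with a symbol and no small RNA, and per list the 4 widest gaps in the direction of its median, all members in the opposite direction and, for cell types, members under 1 RPKM in all 6; a few genes that this rule names are not reported here. Depth is not stated and was estimated from low values that are whole multiples of 1 read, over 311 entries (relative depths 0.519 to 1.36 against knockdown control replicate 1). All 15 pairs of libraries matched within 0.5%, though pairs with knockdown control replicate 1 match by construction. The counting was tested on simulated data. Alternatives were other filters, scalings and pseudocounts, the removal of small RNA entries, and each library left out in turn.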

Additional observations from a re-analysis of the deposited data

How the results depend on the processing

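Leaving out 1 library at a time gave 1660 to 3404 entries above, 1679 to 3342 below, 138 to 697 above by 2-fold or more and 134 to 380 below by 2-fold or more. The highest counts came without KAI1 overexpression. A pseudocount of 5 left 71 and 56 entries 2-fold apart, against 187 and 171 with 0.1, and a gap of 4-fold left 28 and 34. In entries chosen in the knockdown arm, the share lower in KAI1 overexpression was 89.3% at a 4-fold choice. Leaving out each of the other 3 libraries of that arm gave 79% to 82.1% higher and 76.2% to 80.4% lower, the lowest without KAI1 knockdown replicate 2. Of the 300 values that 25 list medians took under 12 settings, 239 kept their sign and moved by less than the spread, 46 kept it and moved by more, and 15 changed sign. The 15 belong to 7 lists. With no filter, where genes near 0 enter, the median was 0.01 for neutrophil and monocyte genes, -0.01 for eicosanoid synthesis and 0.12 for megakaryocyte and platelet genes. At a mean of 5 RPKM or more it was 0.30 for megakaryocyte and platelet genes, -0.35 for integrins and adhesion and -0.01 for immediate early genes. Scaling to the sum without the top 50 entries gave 0.05 for CDK inhibitors and D cyclins. With 1 library left out, it ran from -0.79 to 1.31 for immediate early genes, -0.38 to 0.94 for integrins and adhesion, -0.95 to 0.32 for the nucleolus and Myc list, -0.50 to 0.58 for CDK inhibitors and D cyclins, and -0.09 to 0.50 for megakaryocyte and platelet genes. The ends of those ranges came without knockdown control replicate 1 or KAI1 overexpression, except -0.09, which came without KAI1 knockdown replicate 1. Other filters, scalings and the removal of small RNA kept the 4 counts within 1.5 times. No test was run, paired or unpaired, because the sides came from the values and mix labelled groups. Depth was estimated, and few reads stand behind values under 1 RPKM.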

Other observations

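Several genes with gaps of at least 2-fold lay next to each other on mm9, a pattern described after the values were seen. Leaving out small RNAs, 17 of 129 genes above (13.2%) had another such gene within 100 kb, against 319 of 9824 other entries (3.25%). Below, 16 of 123 genes (13%) did, against 318 of 9830 (3.23%). Above, the runs were the tryptases Tpsab1, Tpsb2 and Tpsg1, the chymases Cma1 and Cma2, Csf2rb with Csf2rb2, Akr1c12 with Akr1c13, Lilrb4a with Lilr4b, the protease-activated receptors F2r and F2rl2, Mmp2 with Lpcat2, and the crystallins Cryba4 and Crybb1. Below, they were the beta globins Hbb-bt, Hbb-bs, Hbb-bh1 and Hbb-y, the alpha globins Hba-x and Hba-a2, Car1 with Car2, Lyz1 with Lyz2, Apoe with Apoc1, and Tmem176a with Tmem176b. Most of these are related copies, whose reads may be shared between entries; the part of shared reads in the runs was not tested.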
